A study of Mus musculus with 12 samples.

Results

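The neuronal cytoskeleton genes described here are 10 genes chosen by name: Tubb3, Stmn2, Dcx, Mapt, Map2, Map1b, Nefl, Nefm, Ina and Gap43. They were taken by symbol from a table of 36255 mouse genes. All 10 were found, each as 1 row, and all 10 passed the filter on low counts in both models that were fitted, which kept 13126 and 18837 genes.

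A young neuron is built around microtubules and neurofilaments. Microtubules are polymers of tubulin that carry traffic along the axon, and proteins bound to them set how stable they are. Neurofilaments are intermediate filaments assembled from several subunits, and they fill the axon as it matures. The growth cone, the motile tip of the axon, has its own membrane-bound proteins. Genes for these proteins are switched on as progenitors of the neural tube and cranial ganglia leave the cell cycle, so they serve widely as markers of early neurons in the embryo.

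Polyadenylated RNA of mouse embryos was sequenced and deposited as read counts per gene for 11 libraries. Titles place them in 6 groups: Skp1aKO, Skp1acont, Skp1acont PI, wt PI and wt, all at 9.5 days post coitum (dpc), and wt at 9.0 dpc. Each had 2 libraries, 1 of lot 1 and 1 of lot 2, except Skp1acont PI, of which the lot 1 library was analysed here and the lot 2 library was not. Skp1a encodes an adaptor of SCF ubiquitin ligases, and the series compares wild-type and Skp1 knockout material. The terms "cont", "PI", "mb" (in every title) and "lot" are used as the labels have them, without expansion, and the labels give no strain, allele or Cre driver. They name embryo as the source while the growth protocol names ES and EB medium, and the region or stage of culture that was sampled is not stated. Whether replicate libraries represent separate embryos is not stated, so that a p-value reflects only how far these libraries spread, and that spread may be technical.

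Total counts ran from 2320599 to 11607085 per library, and a count of 0 allows a level of up to 0.323 to 1.10 CPM (3 counts, scaled to library size by TMM as all CPM here), for counting error only. Skp1a itself had 199 and 212 CPM in the Skp1aKO-labelled libraries, 303 and 104 CPM in those of Skp1acont, 273 CPM in the Skp1acont PI library and 930 to 1337 CPM in the 6 wt libraries. It therefore did not separate Skp1aKO from Skp1acont, and Skp1aKO is used below as a label only. Mitochondrial genes took 5.98% to 15.8% of counts in the 5 libraries with a Skp1a label and 2.44% to 4.01% in the wt libraries. A background level, the median count per kb of exon over 1470 chemoreceptor genes, was 3.07 to 14.5 times the lowest library in the Skp1a-labelled libraries and 1 to 1.73 times in wt. Skp1acont replicate 2 was at the extreme of all 3 measures: fewest counts, most mitochondrial counts and most background. Markers of several tissues were present in every library: 8 erythroid markers summed to 684 to 21144 CPM, 10 neural progenitor markers to 346 to 2136 CPM and 26 early neuron markers outside the cytoskeleton to 130 to 1009 CPM. Because whole samples were measured, fewer neurons and less RNA per neuron cannot be told apart in any comparison below.

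The start regions of these genes were examined because most members moved together in the wt comparisons. RefSeq promoter windows of 300 bases on GRCm38.p6 were at hand for 5 of the 10 genes. Base composition set Dcx apart: its windows held 43.0% and 44.7% G and C, while Map1b, Tubb3, Ina and Map2 held 65.7%, 67.3%, 71.7% and 77.7%. The Dcx values were the 16.5 and 21.1 percentiles of the 32851 promoters searched, which do not cover every chromosome. Of 6 short motifs searched on both strands, CAGCTG and CAGATG are E-boxes of the kind bound by proneural basic helix-loop-helix factors. TATAAA is a string found in TATA boxes, and a match at any position in a window was counted. CAGCTG was found in 1 of the 5 genes (Ina, at position -135 from the RefSeq start) and in 16.3% of 32851 promoters. CAGATG was also in 1 (Map1b, at -213) against 17.2% of promoters, and TATAAA in 2 (Map1b at -99, and Dcx at -98 and -193 from its 2 starts) against 13.6%. GGGCGG was in 4 of the 5, all but Dcx, against 35.7%, CCAAT in Tubb3 and Dcx against 37.4%, and CACGTG in 0 of 5 against 7.15%. Such a match is a description of letters in a window and no evidence of binding. The bases that precede every annotated start are shown for the 3 genes that hold an E-box or a TATAAA string. These bases run 5′ to 3′ on the gene's strand, with those motifs in capitals. They lie at chr19:47014431-47014680 on the plus strand for Ina, chr13:99516603-99516852 on the minus strand for Map1b and chrX:143933312-143933469 on the minus strand for Dcx.
Ina: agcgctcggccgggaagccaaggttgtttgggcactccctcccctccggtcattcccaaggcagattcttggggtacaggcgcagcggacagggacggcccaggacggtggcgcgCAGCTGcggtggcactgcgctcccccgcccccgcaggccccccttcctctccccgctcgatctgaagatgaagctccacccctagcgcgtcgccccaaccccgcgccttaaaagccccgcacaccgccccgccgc
Map1b: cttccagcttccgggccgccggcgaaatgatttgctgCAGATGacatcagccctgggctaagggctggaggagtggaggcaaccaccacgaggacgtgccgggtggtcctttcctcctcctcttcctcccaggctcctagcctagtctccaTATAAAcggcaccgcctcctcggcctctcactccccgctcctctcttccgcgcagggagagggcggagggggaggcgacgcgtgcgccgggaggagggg
Dcx: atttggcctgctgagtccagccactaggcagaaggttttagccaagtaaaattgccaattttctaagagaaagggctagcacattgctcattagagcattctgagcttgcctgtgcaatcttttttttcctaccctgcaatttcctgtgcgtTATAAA

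Comparing wt at 9.5 dpc with wt at 9.0 dpc asks how these genes differ between stages. All 10 were higher at 9.5 dpc, by 2.01-fold (Gap43) to 14.1-fold (Nefl) for the 8 genes that stood above background at 9.0 dpc, and by more for Dcx, in a test that called 31.7% of all genes, 15.0% higher and 16.7% lower. Their median log2 fold change was 2.92, against -0.02 over all 13126 genes tested. The largest steps were those of Dcx, Nefl, Mapt and Nefm, and the smallest those of Map1b and Gap43. Over all genes the test called 1963 higher and 2198 lower, and with library totals in place of TMM 2417 higher and 1362 lower. Each test was edgeR's quasi-likelihood test over the 6 wt libraries, with p-values adjusted over all genes tested, and folds are log2 fold changes with their standard error (SE). Values of a group are given with lot 1 before lot 2.

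Tubb3 encodes the neuron-enriched beta-tubulin and lies on GRCm38 chromosome 8 (123411424 to 123422015, plus strand). It had 93.2 and 104 CPM at 9.5 dpc, against 12.1 and 15.4 CPM at 9.0 dpc (2.85 ± 0.13, adjusted p = 1.6e-06). Stmn2, the tubulin-binding stathmin of growing axons (chromosome 3, 8509360 to 8561606), had 272 and 341 CPM at 9.5 dpc, against 54.7 and 61.3 CPM at 9.0 dpc (2.43 ± 0.12, adjusted p = 1.9e-06). For these genes, as for the other 8, both libraries at 9.5 dpc were above both at 9.0 dpc. The share of all genes separated in this way was not counted, so the separation is not read as a result about the 10 genes.

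The microtubule-binding members ranged most widely. Dcx encodes doublecortin, which bundles microtubules in migrating neurons (chromosome X, 143855842 to 143933311, minus strand). It had 37.4 and 46.9 CPM at 9.5 dpc, against 0.69 and 1.30 CPM at 9.0 dpc (5.24 ± 0.24, adjusted p = 1.6e-06). Its counts at 9.0 dpc were 2 and 11, no higher than the 4.88 and 15.5 that the background level predicts over its exons, so its level at 9.0 dpc was not distinguished from background. Without wt 9.0 dpc replicate 2 the log2 fold change was 5.95, and with background subtracted, which left no counts at 9.0 dpc, the fitted value was 10.87, so the size of the step is not fixed by these data. Mapt encodes tau (chromosome 11, 104231390 to 104332090), and it had 12.1 and 12.9 CPM at 9.5 dpc, against 0.69 and 1.07 CPM at 9.0 dpc (3.71 ± 0.32, adjusted p = 4.4e-05). Its 2 and 9 counts at 9.0 dpc were likewise at background, and with background subtracted the fitted value was 9.04. Map2, whose protein marks dendrites in mature neurons (chromosome 1, 66175273 to 66442583), had 115 and 116 CPM at 9.5 dpc, against 16.6 and 20.03 CPM at 9.0 dpc (2.67 ± 0.12, adjusted p = 1.6e-06). Map1b, a microtubule-associated protein of growing axons (chromosome 13, 99421446 to 99516540, minus strand), took the most counts of the 10 genes. It had 373 and 410 CPM at 9.5 dpc, against 162 and 167 CPM at 9.0 dpc (1.28 ± 0.11, adjusted p = 4.1e-05).

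Among the neurofilament members Nefl and Nefm rose by nearly the same fold. Nefl, the light subunit, had 129 and 113 CPM at 9.5 dpc, against 8.65 and 8.77 CPM at 9.0 dpc (3.82 ± 0.14, adjusted p = 5.3e-07). Nefm, the medium subunit, had 78.2 and 73.3 CPM at 9.5 dpc, against 5.53 and 6.16 CPM at 9.0 dpc (3.70 ± 0.17, adjusted p = 1.6e-06). These genes lie on opposite strands of chromosome 14 (Nefl 68083863 to 68089095, Nefm 68082590 to 68124846) and share 1108 bases of annotated exon, 32.8% of Nefl's and 19.2% of Nefm's. Since the use of strand in counting is not given in the sources used here, reads in the shared bases may have been given to either gene or to neither, and the level of each is uncertain to that extent. Ina encodes alpha-internexin, the subunit known to appear early in developing neurons (chromosome 19, 47014698 to 47025327). It had 43.7 and 46.1 CPM at 9.5 dpc, against 4.84 and 6.28 CPM at 9.0 dpc (2.99 ± 0.16, adjusted p = 3.4e-06), and it shares 456 exon bases (14.1%) with Nt5c2 on the other strand. Gap43, a membrane-bound phosphoprotein of the growth cone (chromosome 16, 42248442 to 42340651, minus strand), made the smallest step. It had 103 and 104 CPM at 9.5 dpc, against 50.9 and 54.3 CPM at 9.0 dpc (1.01 ± 0.10, adjusted p = 1.1e-04).

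**Figure D1:**
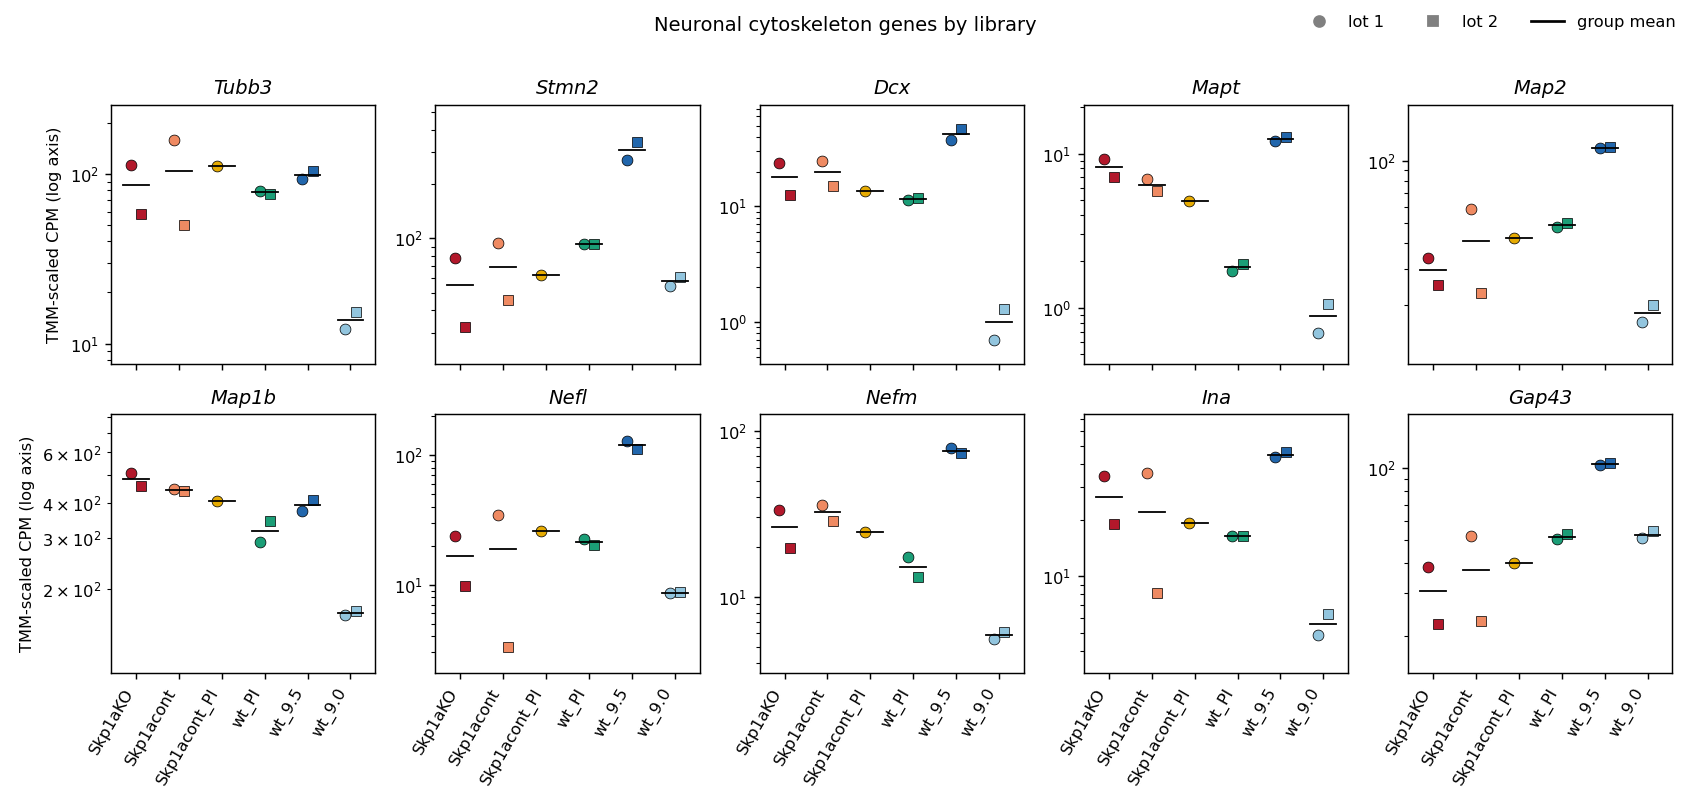
CPM of each gene (log axis, TMM-scaled) in every library, by group, with circles for lot 1, squares for lot 2 and a bar for the group mean (the single value for Skp1acont PI). For all 10 genes both wt 9.5 dpc libraries stand above both wt 9.0 dpc libraries, and the share of all genes that do so was not counted. The wt 9.0 dpc libraries are the lowest of all for Tubb3, Dcx, Mapt, Map2, Map1b, Nefm and Ina.

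Levels per kb of exon allow a rough comparison between genes. Exons were merged over all annotated transcripts, with 1523 bases for Gap43 and 16449 for Map2. A gene whose expressed transcripts are shorter than this is set too low, so the order is approximate. In wt at 9.5 dpc the order began with Gap43 at 67.5 and 68.4 CPM per kb. Stmn2 at 48.6 and 60.9 and Tubb3 at 49.9 and 55.8 CPM per kb followed and overlapped each other. Nefl stood at 38.2 and 33.3 and Map1b at 23.5 and 25.9 CPM per kb. Ina at 13.5 and 14.2 and Nefm at 13.5 and 12.7 CPM per kb overlapped each other. Map2 at 6.98 and 7.06, Dcx at 2.96 and 3.71 and Mapt at 1.61 and 1.71 CPM per kb were the lowest. At 9.0 dpc Gap43 also led, at 33.4 and 35.6 CPM per kb, and Dcx and Mapt were again lowest, at 0.05 to 0.14 CPM per kb.

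Other genes of the same structures did not all follow. Of 10 other tubulin genes tested, 3 were higher (Tubb2a by 2.02, Tubb2b by 2.07 and Tuba1a by 0.85 on the log2 scale) and 3 lower. With library totals in place of TMM, 3 were higher and 0 lower. Of 22 other microtubule-binding and stathmin genes 8 were higher and 2 lower, with Tppp3 at 3.35, Stmn3 at 2.73 and the doublecortin relative Dclk1 at 1.82. Of 7 other intermediate filament genes 2 were higher, the progenitor filaments Vim (2.27) and Nes (2.05), and 3 were lower, among them the epithelial keratin Krt8 (-3.17). Of 23 other growth cone and axon genes 15 were higher and 1 lower, with Sncg, encoding gamma-synuclein, at 5.17, Rtn1 at 2.76 and Dpysl3 at 1.79. The median log2 fold changes of these lists were -0.35, 0.29, -0.58 and 1.24.

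Markers of neurons that are no part of the cytoskeleton stood higher as well. Of 24 early neuron markers tested 22 were higher and 0 lower, with a median of 3.25, among them the transcription factor genes Onecut2 (4.60) and Pou4f1 (3.38) and the RNA-binding protein gene Elavl4 (3.45). The list summed to 1009 and 994 CPM at 9.5 dpc, against 130 and 147 CPM at 9.0 dpc. Of 10 neural progenitor markers 8 were higher and 0 lower, led by Fabp7 (3.40), and they summed to 2136 and 1927 CPM, against 619 and 618 CPM. Of 7 neural crest and glia markers 6 were lower and 1 higher. How far a difference in cell makeup takes part in the rise of the 10 genes was not tested.

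**Figure D2:**
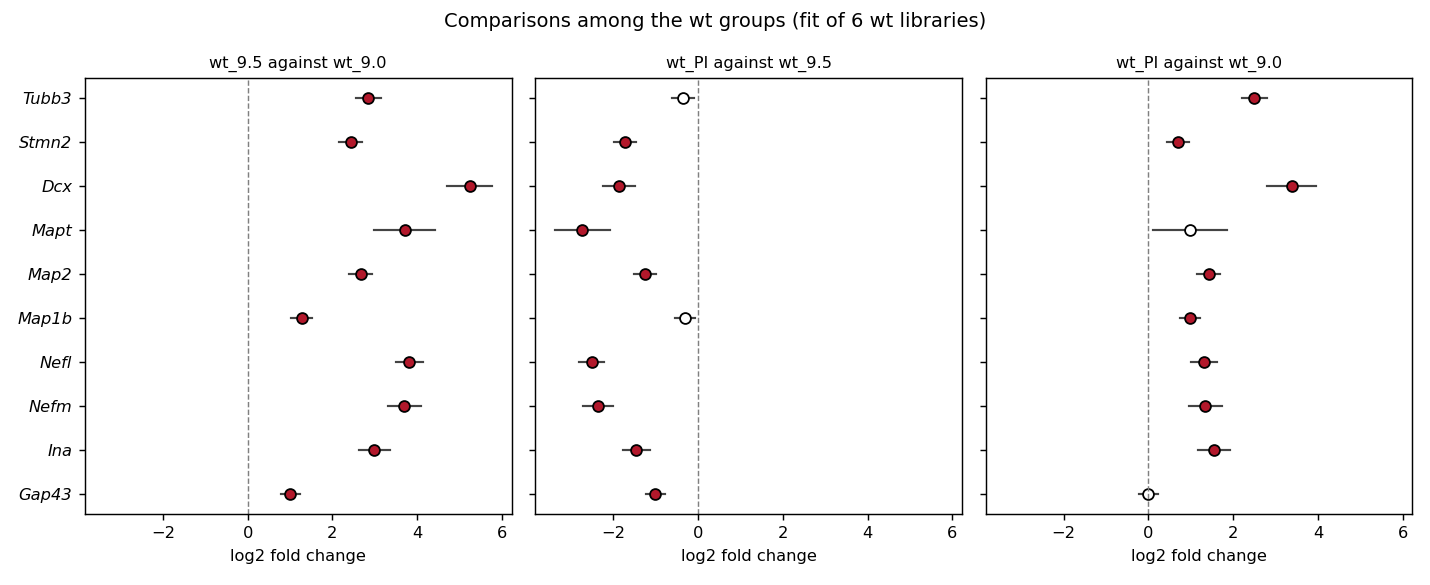
Log2 fold change of each gene (points, with 95% intervals) in the 3 comparisons among wt groups from the fit of 6 libraries, filled where the adjusted p is under 0.05. All 10 genes are filled to the right for wt 9.5 dpc against wt 9.0 dpc, 8 to the left for wt PI against wt 9.5 dpc and 8 to the right for wt PI against wt 9.0 dpc.

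The wt PI libraries, also of 9.5 dpc, were compared with wt at 9.5 dpc and with wt at 9.0 dpc. The labels do not state what PI stands for. Against wt at 9.5 dpc 8 of the 10 genes were lower, in a test that called 28.0% of all genes, 12.4% lower and 15.6% higher, with a median log2 fold change of -1.59 against 0.01 over all genes. Against wt at 9.0 dpc 8 were higher, where 8.60% of all genes were higher and 6.99% lower, with a median of 1.33 against 0.03. Against wt at 9.0 dpc 1129 of all genes were higher and 917 lower, and with library totals 1870 higher and 516 lower. The comparisons share the wt libraries, so their values for a gene are not independent.

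How far the wt PI level lay between the stages differed from gene to gene. Tubb3 had 79.6 and 76.4 CPM in wt PI, which is -0.35 ± 0.12 from wt at 9.5 dpc (adjusted p = 0.052) and 2.50 ± 0.13 from wt at 9.0 dpc (adjusted p = 1.3e-05). Map1b had 292 and 347 CPM in wt PI, which is -0.30 ± 0.11 from wt at 9.5 dpc (adjusted p = 0.063) and 0.98 ± 0.11 from wt at 9.0 dpc (adjusted p = 6.3e-04). These were the 2 genes not called lower than wt at 9.5 dpc in the reported fit. Neither overlapped wt at 9.5 dpc, but the share of all genes separated in this way was not counted. With lot as a block both were called (adjusted p = 0.0066 for Tubb3 and 0.011 for Map1b). With DESeq2 size factors in the edgeR test both were called as well (adjusted p = 0.034 for Tubb3 and 0.044 for Map1b). Dcx had 11.4 and 11.9 CPM in wt PI, which is 3.64-fold lower than wt at 9.5 dpc (-1.86 ± 0.17, adjusted p = 1.8e-04) and 10.4-fold higher than wt at 9.0 dpc (3.37 ± 0.26, adjusted p = 9.7e-05). The log2 difference from 9.0 dpc was 4.05 without wt 9.0 dpc replicate 2 and 8.73 with background subtracted. As a share of the log2 step between the stages, wt PI held 87.7% for Tubb3, 76.5% for Map1b and 64.4% for Dcx, the last against a 9.0 dpc level at background.

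Map2 and Ina lay near the middle of the step. Map2 had 47.6 and 50.1 CPM in wt PI, -1.25 ± 0.11 from wt at 9.5 dpc and 53.3% of the step (adjusted p = 1.8e-04). Ina had 16.5 CPM in both wt PI libraries, -1.45 ± 0.15 from wt at 9.5 dpc and 51.4% of the step (adjusted p = 2.3e-04). The remaining neurofilament genes held less: Nefm had 17.2 and 13.1 CPM (-2.36 ± 0.16, adjusted p = 4.9e-05) and 36.3% of the step. Nefl had 22.4 and 20.4 CPM in wt PI (-2.51 ± 0.13, adjusted p = 2.1e-05) and 34.3% of the step.

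Stmn2 and Gap43 were closest to the earlier stage, and Mapt could not be placed. Stmn2 had 93.4 and 92.7 CPM in wt PI, -1.73 ± 0.11 from wt at 9.5 dpc (adjusted p = 4.9e-05) and 0.70 ± 0.11 from wt at 9.0 dpc (adjusted p = 0.0038), or 28.9% of the step. Without wt PI replicate 2 the difference of Stmn2 from 9.0 dpc was 0.71 and no longer called (adjusted p = 0.064). Mapt had 1.72 and 1.94 CPM in wt PI, -2.73 ± 0.29 from wt at 9.5 dpc (adjusted p = 2.9e-04) and 0.98 ± 0.39 from wt at 9.0 dpc (adjusted p = 0.17), or 26.4% of the step. Background predicts 66.5% and 78.1% of its wt PI counts, and with background subtracted Mapt was called higher in wt PI than at 9.0 dpc (4.58, adjusted p = 0.034). Gap43 had 50.3 and 52.8 CPM in wt PI, against 50.9 and 54.3 CPM at 9.0 dpc, values that overlapped (-0.01 ± 0.10, 95% interval -0.23 to 0.22, adjusted p = 0.99). It was 2.02-fold lower in wt PI than in wt at 9.5 dpc (-1.01 ± 0.10, adjusted p = 2.3e-04). Tubb3 and Gap43 thus stood at opposite ends of the step, and a test of the difference between genes was not made.

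Beside these values, 19 of 24 early neuron markers were lower and 2 higher in wt PI than in wt at 9.5 dpc, with Onecut2 at -1.64, Isl1 at -1.53 and Ebf2 at -1.90. The list summed to 396 and 427 CPM in wt PI, against 1009 and 994 CPM in wt at 9.5 dpc. Of 10 neural progenitor markers 6 were lower and 0 higher, led by Fabp7 (-2.34). Some lists of other tissues moved the same way and some did not. Of 7 mesenchyme markers 4 were lower and 0 higher (median -0.67), and of 8 erythroid markers 3 were lower and 0 higher (median -0.58). Of 7 neural crest and glia markers 2 were lower and 0 higher. Of 8 endothelial markers 0 were lower and 1 higher (median -0.04). Of surface ectoderm (median -0.42), muscle (median 0.37) and trophoblast markers (median 0.01) 0 were called. Of 10 other tubulin genes 6 were higher and 1 lower, among them the widely expressed Tuba1b (0.78), Tubb5 (0.61) and the centrosomal Tubg1 (0.99). Of 22 other microtubule-binding and stathmin genes 3 were higher and 6 lower, and of 23 other growth cone and axon genes 1 was higher and 9 lower, including Sncg (-3.06), Rtn1 (-1.54) and Marcks (-1.14). Among other intermediate filament genes Nes (-1.46) and Vim (-0.88) were lower and the lamin gene Lmnb1 (0.89) higher. Against wt at 9.0 dpc, 21 of 24 early neuron markers were higher in wt PI and 0 lower.

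The makeup of the summed counts of the 10 genes gives a view that does not depend on scaling between libraries. Map1b made up 29.7% and 30.0% of it in wt at 9.5 dpc, 46.2% and 50.8% in wt PI and 51.1% and 48.9% in wt at 9.0 dpc. In the 5 Skp1a-labelled libraries Map1b took 47.1% to 69.0%, which overlaps wt PI and lies above non-PI wt at 9.5 dpc. Nefl took 0.52% to 3.67% of the sum in those 5 libraries, against 3.55% and 2.99% in wt PI and 10.3% and 8.23% in wt at 9.5 dpc. Tubb3 took 7.79% to 16.8% in them, against 12.6% and 11.2% in wt PI and 7.42% and 7.62% in wt at 9.5 dpc. Nefl and Tubb3 thus also overlapped wt PI and did not overlap non-PI wt at 9.5 dpc, for Tubb3 only by 7.79% against 7.62%. In wt at 9.0 dpc Nefl took 2.73% and 2.57%, within the range of the 5 libraries, and Tubb3 3.83% and 4.51%, below it. Stmn2 took 4.87% to 9.90% in the 5 libraries, against 14.8% and 13.6% in wt PI and 21.7% and 25.0% in wt at 9.5 dpc, with no overlap. How often other genes separate in this way was not counted, so no separation here is read as particular to these genes.

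**Figure D3:**
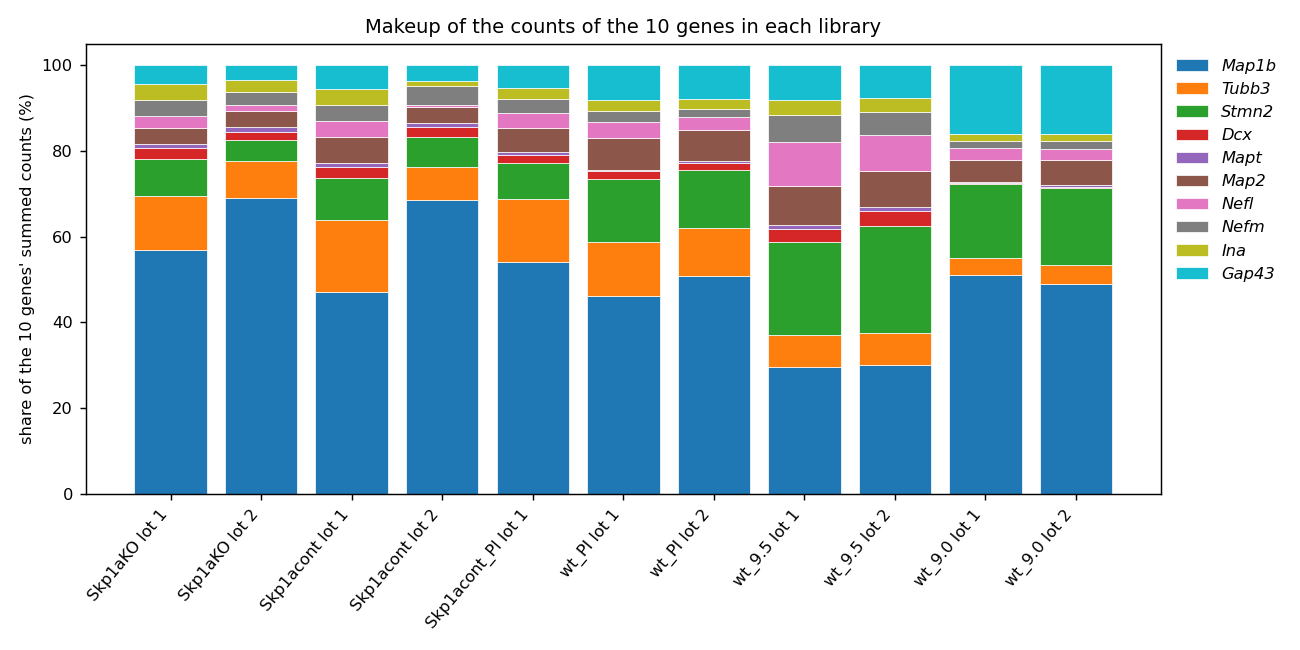
Share of the 10 genes' summed raw counts (vertical axis, percent) taken by each gene in each library (bars). Map1b fills 29.7% and 30.0% of the wt 9.5 dpc bars and 47.1% to 69.0% of the bars of the 5 Skp1a-labelled libraries.

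Comparing the Skp1aKO-labelled libraries with Skp1acont asks how these labels differ at 9.5 dpc. None of the 10 genes was called at an adjusted p under 0.05, as was 0.00% of all genes (0 of 18837, with 1308 at an unadjusted p under 0.05). DESeq2 size factors in the same edgeR test called 1 gene of the whole table and library totals 2 higher and 2 lower, while DESeq2's own Wald test called 18 higher and 51 lower. Log2 fold changes of the 10 genes ran from -0.47 (Map2) to 0.36 (Mapt), and their 95% intervals were wide: -1.37 to 0.44 for Map2, -1.43 to 0.85 for Tubb3 and -1.89 to 1.45 for Nefl. The Skp1acont libraries themselves were far apart, at 159 and 50.1 CPM for Tubb3, 35.9 and 8.15 CPM for Ina and 34.8 and 3.32 CPM for Nefl. Without Skp1acont replicate 2 the log2 fold changes were -0.96 for Map2 and -0.75 for Gap43, and without Skp1acont replicate 1 that of Ina was 1.69.

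Comparing the Skp1aKO-labelled libraries with wt at 9.5 dpc, 6 of the 10 genes were lower and 0 higher, in a test that called 36.4% of all genes, 18.7% lower and 17.6% higher. Nefl, Stmn2, Map2, Gap43, Nefm and Dcx were lower by 2.34-fold to 7.20-fold, while Tubb3, Map1b, Ina and Mapt were not called. In simulated counts for this comparison the fit recovered 35.5% of 200 genes changed by 2 on the log2 scale (of 15358 genes), so a gene not called may still differ. The median log2 fold change was -1.37, against 0.24 over all genes. Without Skp1acont replicate 2 in the fit, which widens the spread shared by all groups, more members were called, and Map1b stood at 0.45. The share of all genes called in that fit is not given here.

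Stmn2 had 77.7 and 32.2 CPM in the Skp1aKO-labelled libraries, against 272 and 341 CPM in wt at 9.5 dpc (-2.48 ± 0.50, adjusted p = 0.0088). Nefl had 23.8 and 9.72 CPM, against 129 and 113 CPM in wt (-2.85 ± 0.78, adjusted p = 0.022). Nefm had 33.2 and 19.7 CPM, against 78.2 and 73.3 CPM in wt (-1.52 ± 0.31, adjusted p = 0.0092). Without Skp1aKO replicate 1 the values were -3.24 for Stmn2 and -3.62 for Nefl. In all 3 the lot 1 library labelled Skp1aKO was the higher of its group and still far below wt.

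Map2 had 34.0 and 25.2 CPM in the Skp1aKO-labelled libraries, against 115 and 116 CPM in wt (-1.96 ± 0.41, adjusted p = 0.010). Gap43 had 38.7 and 22.3 CPM, against 103 and 104 CPM in wt (-1.76 ± 0.41, adjusted p = 0.014). Dcx had 23.5 and 12.6 CPM, against 37.4 and 46.9 CPM in wt (-1.23 ± 0.36, adjusted p = 0.029). Background predicts 27.7% and 58.8% of the Dcx counts and 25.0% and 38.2% of the Map2 counts in the Skp1aKO-labelled libraries, but only 2.03% and 3.996% of those of Gap43.

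The members not called stood nearer to wt. Tubb3 had 113 and 57.9 CPM in the Skp1aKO-labelled libraries, on either side of the 93.2 and 104 CPM of wt (-0.21 ± 0.51, 95% interval -1.35 to 0.93, adjusted p = 0.75). Map1b had 510 and 457 CPM, both above the 373 and 410 CPM of wt (0.30 ± 0.36, 95% interval -0.49 to 1.10, adjusted p = 0.49). Ina had 34.5 and 19.0 CPM, against 43.7 and 46.1 CPM in wt (-0.75 ± 0.53, adjusted p = 0.27). Mapt had 9.20 and 7.07 CPM, against 12.1 and 12.9 CPM in wt (-0.62 ± 0.32, adjusted p = 0.14), with 42.3% and 62.4% of its counts in the Skp1aKO-labelled libraries predicted by background.

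Skp1acont showed much the same levels, and it shares the wt 9.5 dpc libraries with the comparison above. Here 7 of the 10 genes were lower and 0 higher, where 36.4% of all genes were called, 17.1% lower and 19.3% higher. Stmn2 had 93.9 and 45.6 CPM in Skp1acont (-2.13 ± 0.49, adjusted p = 0.014) and Map2 58.5 and 22.9 CPM (-1.50 ± 0.41, adjusted p = 0.023). Gap43 had 52.1 and 22.9 CPM (-1.46 ± 0.41, adjusted p = 0.025) and Nefm 35.7 and 28.7 CPM (-1.23 ± 0.31, adjusted p = 0.018). In each of these 4 genes both Skp1acont libraries were below both wt libraries, as they also were for Dcx, Mapt, Nefl and Ina. The share of all genes separated in this way by Skp1acont alone was not counted. Dcx had 24.7 and 15.1 CPM (-1.08 ± 0.36, adjusted p = 0.043) and Mapt 6.84 and 5.74 CPM (-0.98 ± 0.33, adjusted p = 0.043). Both calls held in 3 of 14 alternatives and were lost with DESeq2 size factors (adjusted p = 0.063 for Dcx and 0.10 for Mapt). In replicate 2 background predicts 82.3% of the Dcx counts, 129% of the Mapt counts and 70.4% of the Map2 counts. Leaving out Skp1acont replicate 1 or 2 gave -2.29 or -0.86 for Map2 and -2.14 or -0.87 for Gap43. Nefl moved most: its 34.8 and 3.32 CPM gave -2.63 ± 0.77 (adjusted p = 0.028), but -1.67 without Skp1acont replicate 2 and -5.14 without replicate 1. In replicate 2 Nefl had 11 counts, the number that background predicts. Ina (-1.003 ± 0.54, adjusted p = 0.15), Tubb3 (0.08 ± 0.51, adjusted p = 0.90) and Map1b (447 and 441 CPM, 0.18 ± 0.36, adjusted p = 0.69) were not called, but without Skp1acont replicate 1 the value of Ina was -2.42. Without Skp1acont replicate 2 Stmn2, Dcx and Mapt stood at -1.59, -0.67 and -0.75, and fewer genes were called.

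Across the 4 libraries labelled Skp1aKO or Skp1acont, 8 genes were below both wt 9.5 dpc libraries in every library, as were 29.1% of all genes. Map1b was above both in all 4, as were 34.5% of all genes, and Tubb3 overlapped wt.

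**Figure D4:**
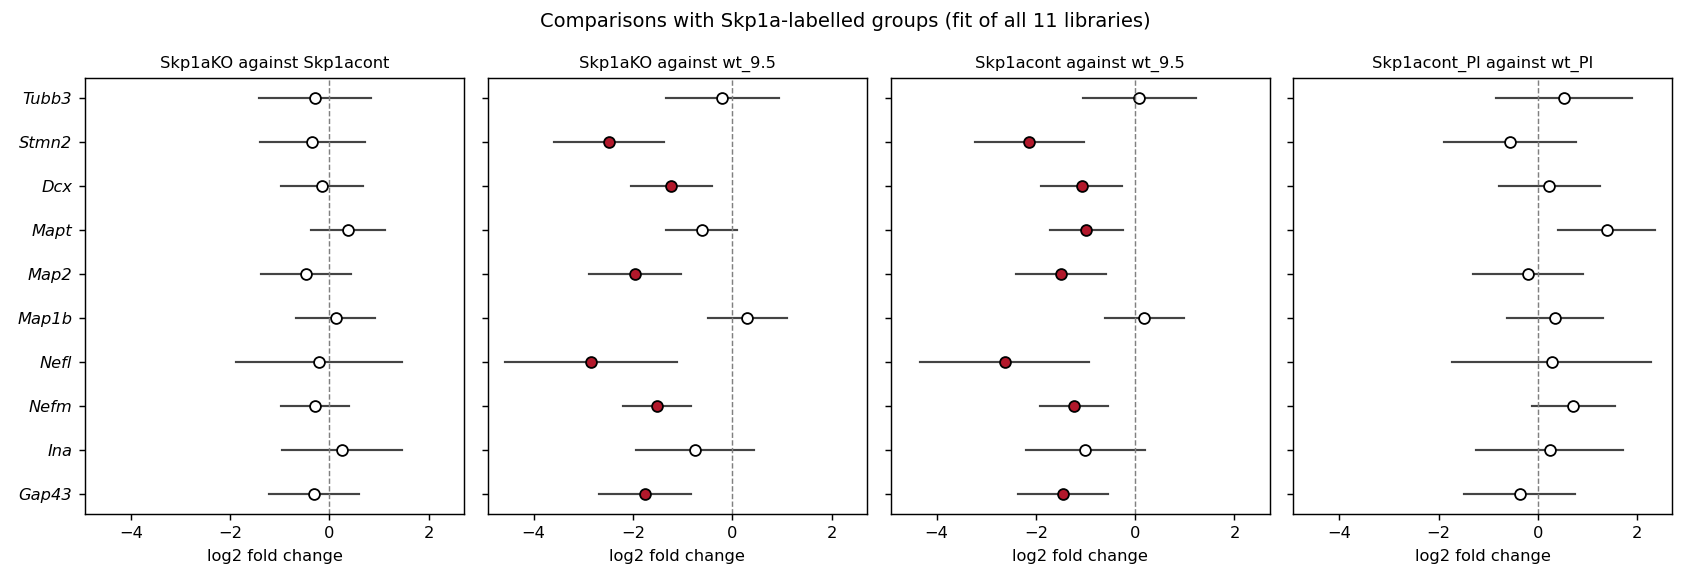
Log2 fold change of each gene (points, with 95% intervals) in the 4 comparisons with Skp1a-labelled groups from the fit of all 11 libraries, filled where the adjusted p is under 0.05. Against wt 9.5 dpc, 6 genes are filled for Skp1aKO and 7 for Skp1acont, all to the left, and none is filled in the other panels.

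These calls depend on how libraries are scaled and on the number of libraries. TMM left the median of all genes at 0.24 in the Skp1aKO-labelled libraries and 0.34 in Skp1acont on the log2 scale, and scaling by library totals moved it to 1.04 and 1.08. With library totals 5 genes were lower and Map1b was higher (1.11, adjusted p = 0.029) in the Skp1aKO-labelled libraries, Dcx was no longer called, and the values of Ina (0.03), Mapt (0.18) and Tubb3 (0.57) were above 0. Over all genes that scaling called 6829 higher and 1395 lower, against 3323 and 3529 with TMM. In Skp1acont it left 2 genes called, Nefl and Stmn2, and over all genes it called 7097 higher and 1246 lower, against 3642 and 3224 with TMM. Leaving out 1 library of a compared group lowered the count for the Skp1aKO-labelled libraries to 0 to 2 genes, with every log2 fold change of the 6 genes still below 0.

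Other lists moved with these genes, at some scalings. Of 26 early neuron markers 9 were lower and 4 higher in the Skp1aKO-labelled libraries than in wt at 9.5 dpc, but 2 lower and 7 higher with library totals. They summed to 609 and 385 CPM in the Skp1aKO-labelled libraries and 608 and 344 CPM in Skp1acont, against 1009 and 994 CPM in wt. Among them the exocytosis gene Snap25 (-1.62) and the granin gene Scg3 (-2.20) were lower and the homeobox gene Phox2a (5.11) higher. Of 24 other growth cone and axon genes 4 were lower and 0 higher, with Sncg at -3.24, Fez1 at -2.78 and Marcks at -1.86, but 2 lower and 7 higher with library totals. Of 22 other microtubule-binding and stathmin genes 4 were lower, including Dclk1 (-1.22), and 2 higher, including Jakmip1 (2.53), and with library totals 0 were lower and 9 higher. Of 11 other tubulin genes Tubb2a (-1.61) was lower and Tubb2b (1.09) and Tubb4a (1.24) were higher, and with library totals 0 were lower and 4 higher. Erythroid markers, of which 5 of 8 were lower under both scalings, summed to 989 and 761 CPM in the Skp1aKO-labelled libraries, against 15549 and 21144 CPM in wt. Of 8 mesenchyme markers 4 were lower and 1 higher (3 higher and 1 lower with library totals), of 8 endothelial markers 4 were lower and 1 higher (2 and 2 with library totals), and of 5 muscle markers 1 was lower and 2 higher under both scalings. The part that the background level, the mitochondrial share and the cell makeup have in the lower values of the 10 genes was not tested.

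Ratios between 2 genes within a library do not depend on scaling. Stmn2 over Tubb3 was 0.56 to 0.91 in the 5 Skp1a-labelled libraries and 1.17 to 4.51 in the 6 wt libraries. Within wt it was 1.17 and 1.21 in wt PI, 2.92 and 3.28 at 9.5 dpc and 4.51 and 3.98 at 9.0 dpc, so the groups were separate. Stmn2 over Map1b was 0.071 to 0.210 in the Skp1a-labelled libraries, against 0.268 to 0.833 in wt. Nefl over Nefm was 0.116 to 1.05 in the Skp1a-labelled libraries, against 1.30 to 1.65 in wt, where it stayed nearly level across the groups while both genes rose. The shared exons of these genes bear on that ratio. The value of 0.116 is that of Skp1acont replicate 2, with 11 Nefl counts, the number that background predicts. Stmn2 over Elavl3, a neuronal RNA-binding protein gene, was 1.30 to 2.35 in the Skp1a-labelled libraries, against 11.2 to 51.7 in wt. The wt values were 39.5 and 51.7 at 9.0 dpc, where Elavl3 had few counts, 11.8 and 13.3 in wt PI and 11.2 and 20.3 at 9.5 dpc. Background, which differs between libraries, was not subtracted in any ratio. Other pairs overlapped between the Skp1a-labelled and the wt libraries: Nefl over Map1b at 0.0075 to 0.078, against 0.053 to 0.346, Tubb3 over Elavl3 at 1.48 to 3.98, against 3.85 to 13, and Map1b over Elavl3 at 11.2 to 18.5, against 15.4 to 140.8. Map1b over Sox2, a neural progenitor marker, was instead higher without overlap, at 3.57 to 11.3, against 1.25 to 3.24 in wt. All pairs were chosen after values were seen, and the share of all gene pairs that separate in this way was not counted. Such ratios show unequal change of the genes and not which of them changed.

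**Figure D5:**
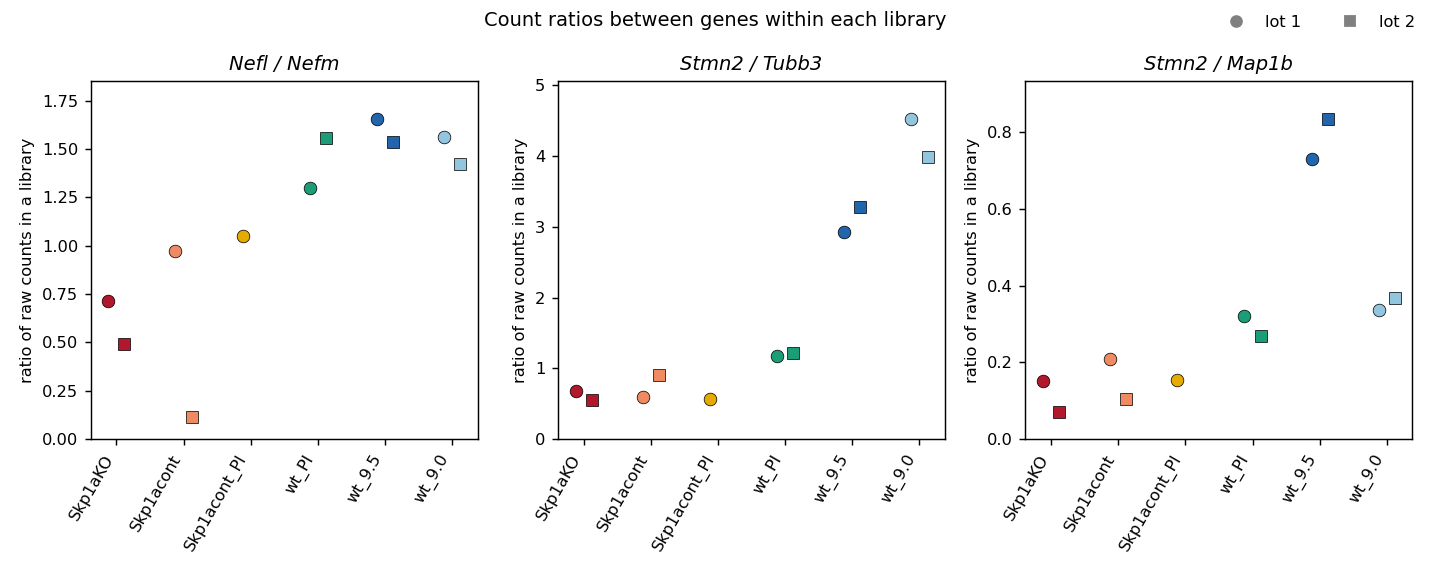
Ratio of raw counts of Nefl to Nefm, Stmn2 to Tubb3 and Stmn2 to Map1b in each library (vertical axes, linear from 0), by group, with circles for lot 1 and squares for lot 2. In each panel the 5 Skp1a-labelled libraries lie below all 6 wt libraries. The pairs were chosen after values were seen, and the share of all gene pairs that separate in this way was not counted.

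Comparing Skp1acont PI with wt PI, none of the 10 genes was called, as were 0.441% of all genes (21 higher and 62 lower, or 1043 higher and 131 lower with library totals). The lone Skp1acont PI library is assumed to vary like the other groups. Mapt had 4.89 CPM in Skp1acont PI, against 1.72 and 1.94 CPM in wt PI (1.38 ± 0.44, adjusted p = 0.11), and Nefm had 24.7 CPM, against 17.2 and 13.1 CPM (0.71 ± 0.38, adjusted p = 0.26). Stmn2 had 62.6 CPM in Skp1acont PI, against 93.4 and 92.7 CPM in wt PI (-0.57 ± 0.60, adjusted p = 0.55), and Gap43 had 39.9 CPM, against 50.3 and 52.8 CPM (-0.37 ± 0.50, adjusted p = 0.65). The other members had 112 CPM for Tubb3, 13.7 for Dcx, 42.3 for Map2, 405 for Map1b, 25.8 for Nefl and 19.4 for Ina in Skp1acont PI, with log2 fold changes from -0.21 to 0.52. Mapt and Nefm were called higher without Skp1acont replicate 2 in the fit (adjusted p = 0.0083 and 0.013) and with library totals (adjusted p = 0.035 and 0.044).

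The difference between PI and non-PI material was then tested as an interaction, the Skp1acont PI difference from wt PI minus the Skp1acont difference from wt at 9.5 dpc. None of the 10 genes was called, as was 0.00% of all genes (0 of 18837, with 1198 at an unadjusted p under 0.05, 0 also with DESeq2 size factors and 1 by DESeq2's Wald test). The log2 value was above 0 for all 10 genes, with a median of 1.30 against -0.15 over all genes, from 0.16 ± 0.56 (Map1b) to 2.90 ± 1.14 (Nefl). With background subtracted it was above 0 for 9. Such values were not particular to these genes. Medians were 2.05 for erythroid, 1.18 for neural progenitor, 0.96 for early neuron and 0.76 for mesenchyme markers. They were -0.30 for neural crest and glia, -0.31 for endothelial and -1.08 for muscle markers. Mapt (2.37 ± 0.55) and Nefm (1.94 ± 0.48) had the lowest unadjusted p among them. Without Skp1acont replicate 2 their values were 2.23 and 1.82. Without Skp1acont replicate 1, which leaves only the Skp1acont library with the most background, the value was 5.43 for Nefl, 2.67 for Ina and 2.10 for Map2.

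The genes whose profile was most like the mean of the 10, by Pearson's r of log2 CPM over the 6 wt libraries, were Cacng4, Svip, Rufy3, mt-Nd6 and Ap3b2, with r from 0.998 to 0.999. Cacng4, an AMPA receptor auxiliary subunit gene, had 57.6 and 62.6 CPM in the wt 9.5 dpc libraries, 28.3 and 28.4 CPM in those of wt PI and 13.1 and 14.6 CPM in those of 9.0 dpc. Over all 11 libraries they were H2-K1, Xpr1, Mturn, Tspan18 and Rtn1, with r from 0.959 to 0.973. Libraries of a group share their condition, so these values describe profiles over 3 and 6 groups.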

How the data were processed

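Poly(A) RNA-seq counts per gene were used as the authors deposited them: whole-number read counts of 36255 genes in 11 libraries, not normalized. The submitters' processing notes name Trim Galore 0.6.7 and the GRCm38 build. Aligner, counting tool and strand setting: not given in the sources used here. Total counts were 2320599 to 11607085 per library.

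The 10 members and the 13 lists of other genes (161 genes) were chosen with earlier results of these data known. The tests used edgeR 4.0.16 (R 4.3.3): filterByExpr by group, TMM, and the two-sided quasi-likelihood F test with robust estimates, with Benjamini-Hochberg adjustment over all genes tested and a call at an adjusted p under 0.05. Comparisons among wt groups used the 6 wt libraries (13126 genes). Comparisons with a Skp1a-labelled group used all 11 (18837 genes), so that groups share 1 estimate of the spread. The fits were tested on simulated data with 200 genes changed by 2 on the log2 scale: 98.5% were recovered for wt at 9.5 dpc against 9.0 dpc (12810 genes) and 35.5% for Skp1aKO against wt at 9.5 dpc (15358 genes). CPM values are TMM-scaled. Exon lengths and positions are from GENCODE M21, and promoters from RefSeq.

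Named genes are the 10 members, Skp1a, from each list at most the 3 called genes of smallest adjusted p per comparison, and the 5 genes most like the members' mean over 6 or 11 libraries. Nt5c2, Elavl3 and the pairs of genes in ratios were chosen after values were seen. Alternatives were DESeq2 1.42.0 size factors and its Wald test, library totals, other filters, a legacy quasi-likelihood fit, background subtracted, other sets of libraries, each library left out, and lot as a block. The lot number appeared to pair wt libraries, on the evidence of the counts and not of a label: deviations from group means correlated with r from 0.297 to 0.343 across genes in all 3 pairs of wt groups. The reported fits nevertheless used no lot block. With the block the biological coefficient of variation of the wt fit was 7.19%, against 19.6% without it. In the 7 pairs of groups with a Skp1a label r ran from -0.01 to 0.18.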

Additional observations from a re-analysis of the deposited data

How the results depend on the processing

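All 10 genes were called higher in wt at 9.5 dpc than at 9.0 dpc under every alternative except the fit of all 11 libraries, which called 7. That fit, with a biological coefficient of variation of 35.4% against 19.6% for wt alone, called 2 for wt PI against wt at 9.5 dpc and 0 against wt at 9.0 dpc. Leaving out 1 library, the counts called were 10, 8 and 7 to 8 in these 3 comparisons. Leaving out 1 library gave 0 to 2 genes for Skp1aKO against Skp1acont, 0 to 8 for Skp1aKO against wt at 9.5 dpc, 0 to 8 for Skp1acont against wt at 9.5 dpc, 0 to 2 for Skp1acont PI against wt PI and 0 to 7 for the interaction. For Skp1acont against wt at 9.5 dpc, library totals gave 2, background subtracted 2 and a fit of only the groups compared 0. For Skp1acont PI against wt PI, library totals gave 2 and a fit of only the groups compared 6, in which the spread came from 1 pair of wt PI libraries and from no library of the other arm, so that these 6 are not read as differences. For Skp1aKO against wt at 9.5 dpc, background subtracted gave 4. The share of all genes called is not given for the fits with 1 library left out, so their counts show only how calls depend on single libraries. No member called in the reported fits changed sign under any alternative. Over all genes DESeq2's Wald test called fewer than edgeR in the wt comparisons: 1029 higher and 1182 lower against 1963 and 2198 for wt at 9.5 dpc against 9.0 dpc, 1072 and 973 against 2042 and 1627 for wt PI against wt at 9.5 dpc, and 425 and 556 against 1129 and 917 for wt PI against wt at 9.0 dpc. For Skp1acont PI against wt PI it called more, 405 and 1227 against 21 and 62.

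With lot as a replicate block the counts were 10, 10 and 8 in the wt comparisons, 0, 6, 7 and 0 in those with Skp1a labels and 0 in the interaction, so that the block added Tubb3 and Map1b for wt PI against wt at 9.5 dpc and changed no other call. A block in a fit without Skp1acont replicate 2, chosen after seeing the data, gave 1 for Skp1aKO against Skp1acont, 8 and 4 for Skp1aKO and Skp1acont against wt at 9.5 dpc, 3 for Skp1acont PI against wt PI and 3 for the interaction. The share of all genes called is not given for the fits with a block, so these counts show only how calls depend on the block. Background limited Dcx and Mapt at 9.0 dpc, where their counts were no higher than it predicts in either library.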
